A study of Homo sapiens with 4 samples.

Results

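VIM, SNAI2, EMP1 and EMP3 are 4 of the 14006 genes with a named probe set in this expression study of prostate cancer cultures, and 6 of its 37934 probe sets read them, 3 for VIM and 1 for each of the others. They were chosen by their measured values, because earlier readings of the same arrays had put all 4 among the genes higher in the cultures labelled low for a cell surface glycan. Their differences between those cultures are given as a description, with no test. Total RNA of 4 human cultures was hybridised, 1 array per culture and no replicate. PC3-H and PC3-L are both PC3 cells, which come from a bone metastasis and are androgen-independent, isolated with IIH6C4, an antibody to the laminin-binding glycan of alpha-dystroglycan. By titles and source names PC3-H is high and PC3-L low for that glycan, whereas the free-text descriptions state the reverse for this pair. LNCaP is a line from a lymph node metastasis that its characteristics call androgen-dependent, with a high glycan label. LNCaP-AI is labelled as LNCaP cells made androgen-independent by culture with charcoal-stripped serum, a serum poor in steroids, and as low for the glycan; its description also names medium conditioned by human perineural cells. All 4 cultures were grown in RPMI1640 with foetal bovine serum, penicillin and streptomycin. By their labels the high glycan cultures move and invade little and the low glycan cultures are motile and invasive.

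Epithelial-mesenchymal transition is the shift of cells from a sheet joined by junctions to a migratory state, and in carcinoma it is driven by a small set of repressors that bind E-box motifs. SNAI2 encodes Slug, a zinc finger repressor of that set which silences epithelial junction genes. VIM encodes vimentin, the intermediate filament protein of mesenchymal cells and the classical marker of the shift. EMP1 and EMP3 encode epithelial membrane proteins, small proteins that span the membrane several times and belong to the PMP22 family, which is named after a myelin protein of Schwann cells. Despite their family name, EMP genes are not restricted to epithelium.

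The promoters of the 3 members below are shown because the members were high on the same arrays, and because SNAI2 and AP-1 are sequence-specific factors whose motifs can be searched. Each run is the stretch of 250 bases before the start of the gene in RefSeq's GRCh38.p14 annotation, 5′ to 3′ on the plus strand. VIM lies at chr10:17227991-17228240, EMP1 at chr12:13196476-13196725 and EMP3 at chr19:48325302-48325551; EMP3 has a second annotated start that is not shown. Capitals mark matches to the AP-1 motif TGAGTCA or to the E-box CACCTG, the motif bound by SNAI2, on either strand.

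VIM: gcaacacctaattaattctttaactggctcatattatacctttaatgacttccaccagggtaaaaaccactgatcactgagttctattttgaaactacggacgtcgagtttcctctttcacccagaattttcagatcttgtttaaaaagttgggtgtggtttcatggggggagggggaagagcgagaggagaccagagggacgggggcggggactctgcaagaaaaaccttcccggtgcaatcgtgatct
EMP1: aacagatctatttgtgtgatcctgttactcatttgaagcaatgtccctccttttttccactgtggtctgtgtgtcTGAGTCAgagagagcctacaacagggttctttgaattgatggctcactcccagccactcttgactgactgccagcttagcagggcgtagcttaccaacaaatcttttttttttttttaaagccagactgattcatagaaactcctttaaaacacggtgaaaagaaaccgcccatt
EMP3: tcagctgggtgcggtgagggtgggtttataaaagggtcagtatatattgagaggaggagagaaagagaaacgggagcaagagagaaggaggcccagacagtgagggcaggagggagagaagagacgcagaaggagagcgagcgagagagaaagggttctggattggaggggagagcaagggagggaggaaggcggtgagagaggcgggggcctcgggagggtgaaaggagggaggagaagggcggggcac

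EMP1 held 1 AP-1 match, which began 175 bases before the start, and VIM and EMP3 held none. No E-box match lay in any of the 3 stretches. Among 35116 promoters of the same length, 4.20% held the AP-1 motif and 17.5% the E-box. The stretches had a GC content of 46.0% (VIM), 42.4% (EMP1) and 59.2% (EMP3), with 8, 3 and 9 CpG sites, against medians of 58.0% and 11 over all promoters. A match is a run of letters and was not tested as a binding site.

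The array labelled LNCaP-AI was nearer to PC3-L than to LNCaP in its whole profile and in most line markers. Why it was so was not tested, and every value read from it carries that limit. Across all probe sets on the log2 scale it correlated at r = 0.961 with PC3-L and at r = 0.885 with LNCaP (a correlation across probe sets, which are not replicates). All 4 measured LNCaP markers (KLK3, KLK2, FOLH1 and SPDEF) were at least 2-fold lower on it than on LNCaP, where 5.13% of genes were. KLK3 was 61.2 on it against 1781 on LNCaP and 63.4 on PC3-L. SPDEF was also 5.33-fold lower on PC3-L than on PC3-H. Of 6 PC3 markers 5 were past 2-fold higher on it than on LNCaP and 0 lower, where 5.45% of genes were higher. CXCL8 was among the 5, but it was 46.9 on this array against 497 on PC3-L. UCHL1, also among the 5, was 57.4 on PC3-H against 54.1 on LNCaP, so it did not separate those arrays. LCN2, which was not among the 5, was 1881 on PC3-H but 46.1 on PC3-L. It was 46.0 on the array labelled LNCaP-AI and 64.5 on LNCaP. The members' differences and the counts of each gene list are therefore also given for PC3-L against LNCaP, which leaves that array out. That comparison is between different lines, so line, androgen dependence and glycan label cannot be told apart in it. Array medians lay between 39.8 and 41.2, and intensities are on the deposited linear scale. Folds and differences are on the scale of log2(intensity + 1), which understates the change of dim genes. In bulk RNA, fewer cells of a type and less RNA per cell cannot be told apart.

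All 4 members were highest on the array labelled LNCaP-AI and PC3-L. VIM, SNAI2 and EMP1 were low on both LNCaP and PC3-H. EMP3 was low only on LNCaP and was 575 on PC3-H, where 98.4% of probe sets were dimmer. VIM, read from its brightest probe set, had an intensity of 65.1 on LNCaP and 104 on PC3-H, against 896 on PC3-L and 1216 on the array labelled LNCaP-AI. The high glycan arrays were thus both far below the low glycan arrays, by 8.55-fold at the narrowest gap. A further VIM probe set, 16712274, gave 36.5, 69.3, 838 and 1229 on the same arrays in that order. The last, 16702767, gave 35.7, 51.4, 655 and 603.

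The 3 VIM probe sets agreed on which arrays were low and which were high, but not on sizes. PC3-L over PC3-H was 8.55-fold, 11.9-fold and 12.5-fold in the order just given, and the array labelled LNCaP-AI over LNCaP was 18.4-fold, 32.8-fold and 16.5-fold. The order of the array labelled LNCaP-AI and PC3-L also turned: the former was 1.36-fold and 1.47-fold higher in the sets from the high identifiers and 1.08-fold lower in 16702767. VIM is a plus-strand gene in RefSeq. The 50 single-probe genes of its chromosome with identifiers nearest to 16702767 were all plus-strand genes, and the 50 nearest to each of the other sets were all minus-strand genes. Which strand the latter sets read was not given by the annotation used here, so their signal is reported as annotated to VIM and may include antisense RNA.

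SNAI2 was 57.6 on LNCaP and 93.5 on PC3-H, against 634 on PC3-L and 468 on the array labelled LNCaP-AI. Its lower low glycan value was 4.96-fold above its higher high glycan value. PC3-L was the highest array for SNAI2, 1.35-fold above the array labelled LNCaP-AI.

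EMP1 followed SNAI2 in the order of the arrays. It was 31.9 on LNCaP, where 35.2% of all probe sets were dimmer, and 69.8 on PC3-H, against 714 on PC3-L and 525 on the array labelled LNCaP-AI. The narrowest gap between high and low glycan arrays was 7.43-fold, and PC3-L exceeded the array labelled LNCaP-AI by 1.36-fold.

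EMP3 differed from the other members on PC3-H. It was 37.2 on LNCaP, below that array's median of 40.8, but 575 on PC3-H, where 98.4% of probe sets were dimmer. It was 1794 on PC3-L and 2473 on the array labelled LNCaP-AI. The gap between PC3-H and PC3-L was 3.12-fold, and that between LNCaP and PC3-H was 15.1-fold, so that EMP3 separated the LNCaP array from the 3 others more than it separated low from high glycan labels.

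**Figure D1:**
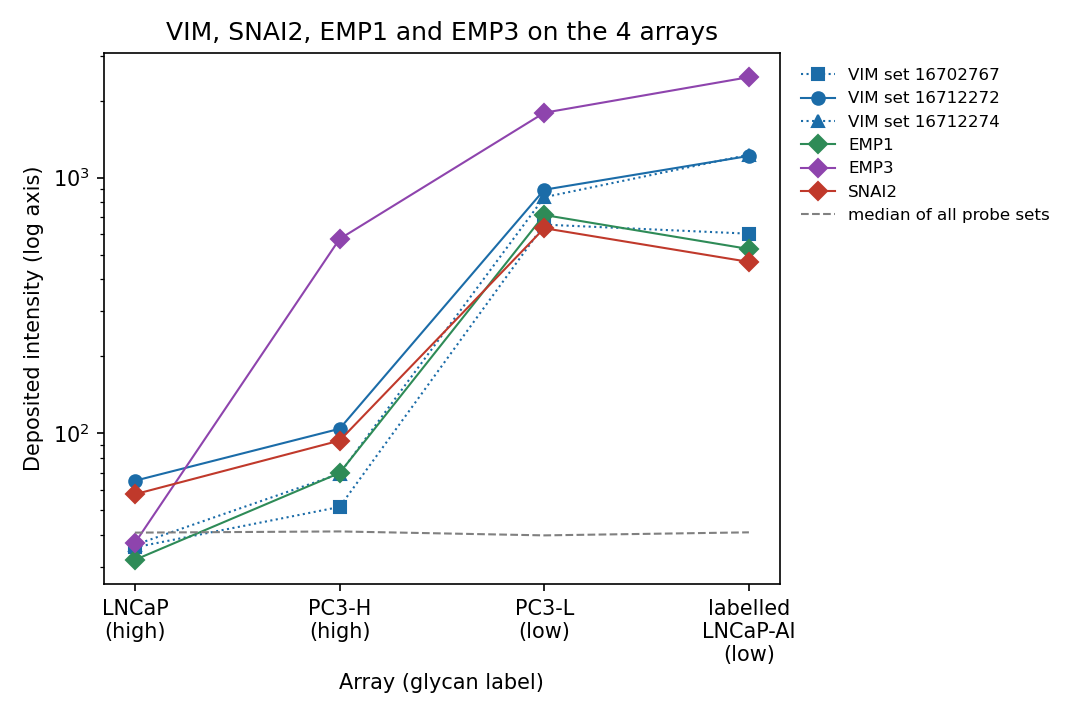
Deposited intensity (log axis) of each probe set of VIM, SNAI2, EMP1 and EMP3 on the 4 arrays, 1 array each; lines only join the points of a probe set, dotted lines are the VIM sets that do not stand for the gene, and the dashed line is the median of all probe sets. The members stand between 31.9 and 104 on LNCaP and PC3-H and between 468 and 2473 on the low glycan arrays, apart from EMP3 at 575 on PC3-H.

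In the PC3 pair, which by its titles compares low with high glycan within that line, all 4 members passed the filter on dim genes. All 4 were past 2-fold higher on PC3-L. That direction chose them, and 8.58% of the 11126 genes tested were past 2-fold higher. On the log2 scale the differences were 3.34 for EMP1, 3.10 for VIM, 2.75 for SNAI2 and 1.64 for EMP3, beside a median of −0.020 over all genes tested. EMP1 ranked 12, VIM 17, SNAI2 32 and EMP3 205 from the highest.

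By labels and description the LNCaP pair adds androgen independence and conditioned medium, and the limit given above for its LNCaP-AI array holds. In this pair all 4 were past 2-fold above LNCaP on the array labelled LNCaP-AI, against 5.45% of 11135 genes tested. Here EMP3 had the largest difference of all genes tested, 6.02 on the log2 scale (64.8-fold). VIM followed at 4.20, EMP1 at 4.00 and SNAI2 at 3.00, beside a median of 0.0052. EMP3 and EMP1 were below or near the middle of the LNCaP array's values, so these folds rest on dim LNCaP readings.

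With PC3-L replacing the array labelled LNCaP-AI, the members were past 2-fold above LNCaP in 4 of 4, where 7.24% of genes were. EMP3 was 47.0-fold, EMP1 21.7-fold, VIM 13.6-fold and SNAI2 10.8-fold higher on PC3-L than on LNCaP. Against PC3-H, the array labelled LNCaP-AI was past 2-fold higher in 4 of 4 members, where 3.98% of genes were. VIM was 11.6-fold, EMP1 7.43-fold, SNAI2 4.96-fold and EMP3 4.29-fold higher. These comparisons share arrays with the named pairs, and by their labels each also sets PC3 cells against LNCaP cells.

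Between the low glycan arrays themselves 0 of 4 members differed by 2-fold. There 0.832% of genes were past 2-fold higher and 1.96% past 2-fold lower on the array labelled LNCaP-AI. The members' log2 differences were 0.46 for EMP3, 0.44 for VIM, −0.44 for SNAI2 and −0.44 for EMP1. Between the high glycan arrays 2 of 4 members were past 2-fold lower on LNCaP than on PC3-H, EMP3 at −3.92 and EMP1 at −1.11, where 4.48% of genes were lower. EMP1 stood just past this limit and came to −0.93 with a pseudocount of 10. VIM at −0.67 and SNAI2 at −0.69 stayed within 2-fold.

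The pattern shared by the members, with both low glycan arrays at least 2-fold above both high glycan arrays, was seen in 163 of 11506 genes (1.42%); the opposite pattern was seen in 97 (0.843%). By the size of this gap VIM ranked 4, EMP1 5, SNAI2 15 and EMP3 47. Without the array labelled LNCaP-AI in the gap, that is with PC3-L above both high glycan arrays, the count was 430 of the same 11506 genes. This rule is looser because it asks for 1 low glycan array rather than both, and the left-out array still counted in the filter.

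**Figure D2:**
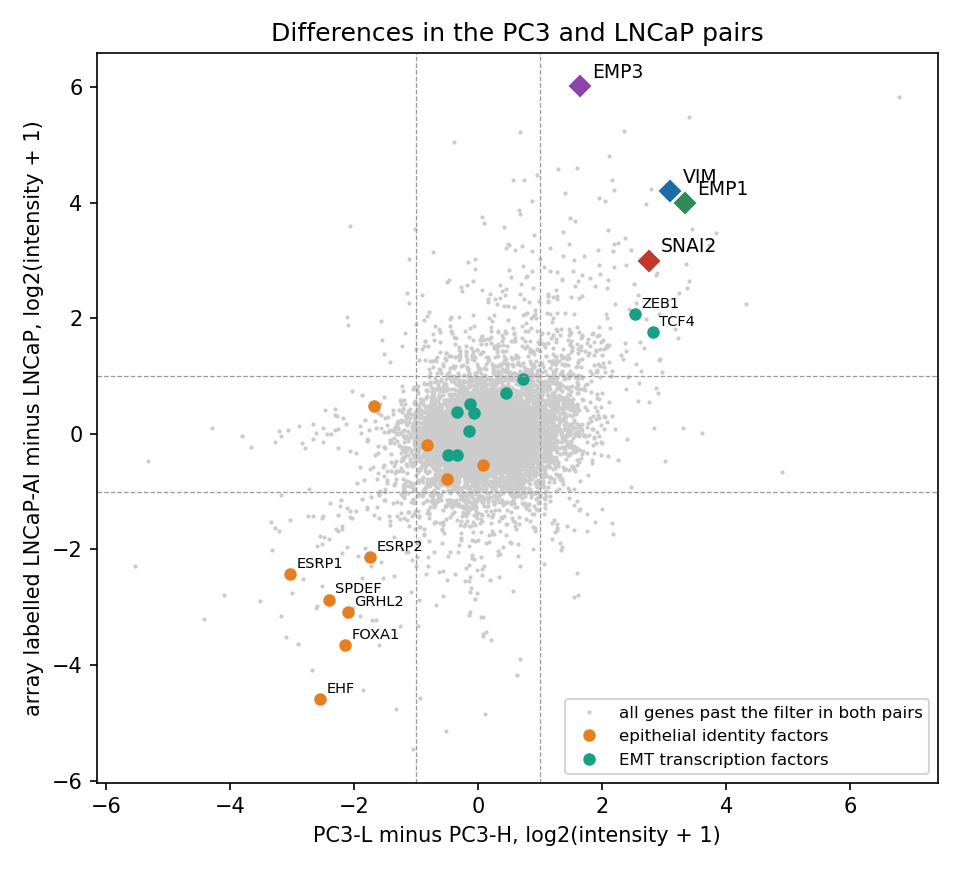
Log2 difference in the PC3 pair (horizontal) against that in the LNCaP pair (vertical) for all genes past the filter in both, 1 array per group; dashed lines mark 2-fold, diamonds the members. EMP3 lies highest at 6.02 and 1.64, and the other members lie between 2.75 and 3.34 in the PC3 pair.

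Among regulators of the transition, the members of the SNAI, ZEB and TCF families differed among themselves. Of 12 measured factors 11 passed the filter, and SNAI2, ZEB1 and TCF4 were past 2-fold higher in the PC3 pair, with 0 lower; the same 3 were higher in the LNCaP pair, with 0 lower. Without SNAI2 that is 2 of 10 in each. For PC3-L against LNCaP the count was again 3 higher, SNAI2, ZEB1 and TCF4, and 0 lower. Over all genes tested, 8.58% were higher in the PC3 pair, 5.45% in the LNCaP pair and 7.24% for PC3-L against LNCaP. ZEB1, a zinc finger homeobox repressor of epithelial genes, was 36.5 on LNCaP and 38.2 on PC3-H, against 225 on PC3-L and 157 on the array labelled LNCaP-AI. Its differences were 2.53 and 2.07 on the log2 scale. TCF4, an E-box binding factor of the E protein family, was 53.6, 60.9, 435 and 184 on the same arrays in that order.

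The relatives of SNAI2 and ZEB1 stayed within 2-fold. SNAI1, which encodes Snail, was 61.0 on LNCaP and 71.6 on PC3-H, against 50.8 on PC3-L and 47.0 on the array labelled LNCaP-AI, so it was slightly lower where SNAI2 was high. SNAI3 lay between 49.7 and 64.8 on all 4 arrays. ZEB2 came closest to 2-fold, at 1.64-fold in the PC3 pair, against 1.93-fold in the LNCaP pair. TWIST1, a helix-loop-helix inducer of the transition, was 1.36-fold and 1.63-fold higher. The median over the whole list was −0.070 in the PC3 pair, against 0.52 in the LNCaP pair.

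Factors that maintain epithelial identity went the other way. In the PC3 pair 7 of 11 were past 2-fold lower and 0 higher, where 3.76% of all genes were lower, with a list median of −1.74. In the LNCaP pair 6 of 10 were lower and 0 higher, where 5.13% of all genes were lower, with a median of −2.28. For PC3-L against LNCaP 6 of 10 were lower and 0 higher, where 4.51% of all genes were lower. ESRP1, which directs epithelial splicing, was 216 on PC3-H and 167 on LNCaP but 25.4 on PC3-L and 30.2 on the array labelled LNCaP-AI. GRHL2, a grainyhead factor of epithelial barrier genes, was 129 on PC3-H and 287 on LNCaP but 29.3 on PC3-L and 32.8 on the array labelled LNCaP-AI. The others lower in both pairs were ESRP2, EHF, SPDEF and FOXA1, and KLF5 was lower only in the PC3 pair (3.22-fold; 1.40-fold higher in the LNCaP pair).

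**Figure D3:**
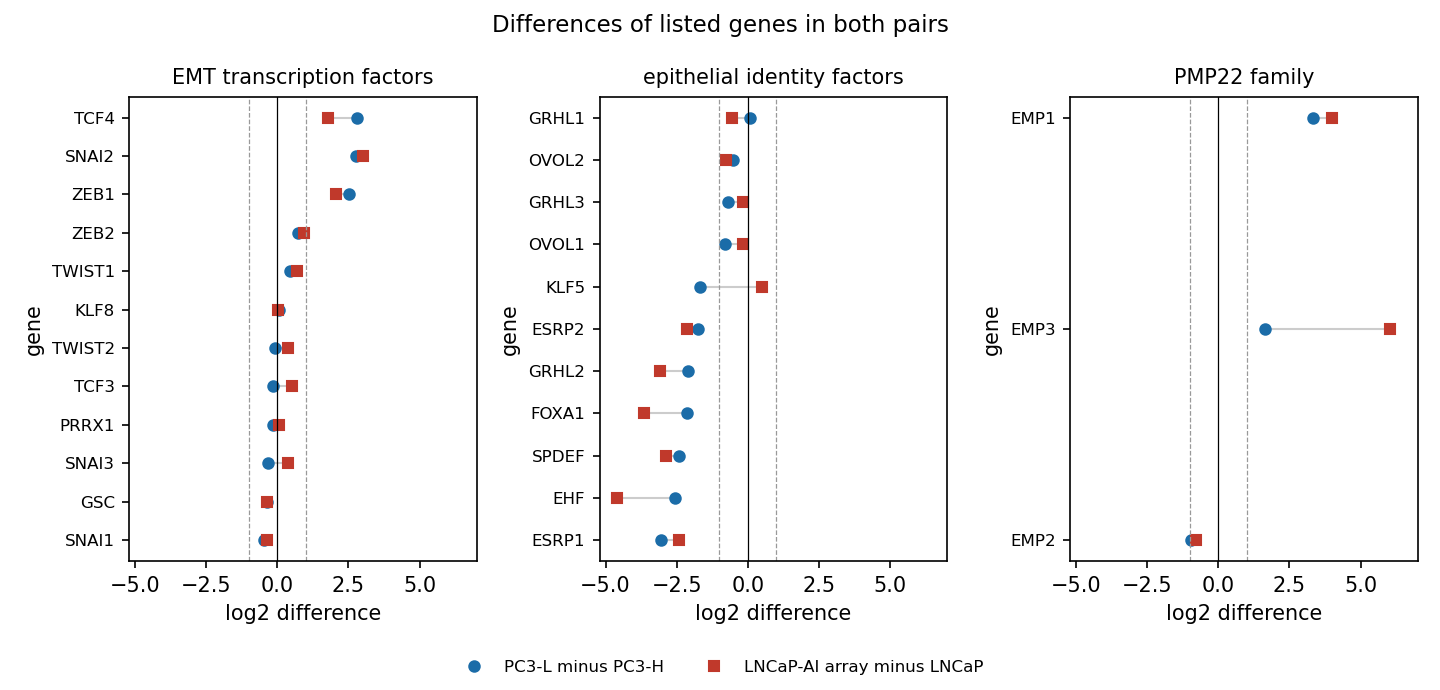
Log2 difference of each measured gene of 3 lists in the PC3 pair (circles) and the LNCaP pair (squares), 1 array per group, with dashed lines at 2-fold; KLF8 in both pairs and GRHL3 in the LNCaP pair did not pass the filter. SNAI2, ZEB1 and TCF4 lie right of the 2-fold line in both pairs, and ESRP1, ESRP2, GRHL2, EHF, SPDEF and FOXA1 left of it.

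Junction and keratin genes are known to be repressed in part by Slug and its relatives. In the PC3 pair 10 of 23 tested were past 2-fold lower, where 3.76% of all genes were. In the LNCaP pair 10 of 21 were lower, where 5.13% of all genes were, with 0 higher in either pair. Medians were −0.91 and −0.99. CDH1, the E-cadherin gene, was on this list but had no named probe set and is not analysed here. CLDN7, JUP, DSP, CLDN3 and EPCAM were lower in both with a gap of at least 2-fold between the groups of arrays. JUP, the plakoglobin gene of desmosomes and adherens junctions, was 5.33-fold lower at the narrowest gap. The keratins did not behave alike: KRT19 was 463 on PC3-H and between 44.2 and 48.8 on the other arrays. KRT18, read from its brightest probe set, lay between 732 and 1436 and KRT8 between 88.0 and 123 on all 4. A further KRT18 probe set was much dimmer, between 127 and 189 on all 4, so the level of KRT18 depends on the set. OCLN, the occludin gene of tight junctions, was 1.32-fold higher in the PC3 pair, against 3.87-fold lower in the LNCaP pair; it was 1.59-fold lower on PC3-L than on LNCaP, within 2-fold. Of 22 tested for PC3-L against LNCaP, 9 were past 2-fold lower and 1, CLDN1, higher. Among all genes 4.51% were lower and 7.24% higher there. CLDN7, JUP, DSP, CLDN3 and EPCAM were among the 9.

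Within the PMP22 family the other measured member, EMP2, did not share the pattern of EMP1 and EMP3. EMP2 was 176 on LNCaP and 188 on PC3-H, against 96.4 on PC3-L and 100.5 on the array labelled LNCaP-AI. The low glycan arrays were both below the high glycan arrays, and the log2 difference was −0.96 in the PC3 pair, against −0.80 in the LNCaP pair, within 2-fold. It passed 2-fold in the PC3 pair after quantile normalization (−1.05) or cyclic loess (−1.01). On PC3-L against LNCaP the log2 difference of EMP2 was −0.86, also within 2-fold. A further EMP2 probe set gave −0.9993 and −0.54. PMP22 and LIM2 had no named probe set and are not analysed here.

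In the PC3 pair no other intermediate filament or linker gene was past 2-fold higher with VIM. Of the 8 measured besides VIM, 0 were higher there and 1, NES, was lower, at 42.4 on PC3-L against 107 on PC3-H. Over all genes tested 8.58% were higher and 3.76% lower in that pair, and 5.45% and 5.13% in the LNCaP pair. These shares were 7.24% and 4.51% for PC3-L against LNCaP. NES encodes nestin, a filament of progenitor cells. In the LNCaP pair LMNA (3.21-fold), the nuclear lamin A/C gene, and PLEC (4.10-fold), which encodes the filament linker plectin, were higher. Both were lower in the PC3 pair, by 1.32-fold and 1.78-fold. On PC3-L against LNCaP LMNA was 1.32-fold and PLEC just under 2-fold higher, and 0 of the 8 were counted past 2-fold in either direction. DES, the desmin gene of muscle, lay between 59.5 and 77.9 on all 4 arrays and GFAP, the glial filament, between 38.0 and 43.1.

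Of 18 further mesenchymal genes 7 were measured and 6 passed the filter. CDH2, the N-cadherin gene, was on this list but had no named probe set and is not analysed here. In the PC3 pair 1 was past 2-fold higher and 0 lower (median 0.55), and in the LNCaP pair 3 were higher and 0 lower (median 1.43). The same 3, AXL, LOXL2 and MSN, were higher for PC3-L against LNCaP, with 0 lower. The shares of all genes past 2-fold higher were 8.58%, 5.45% and 7.24% in these comparisons, in that order. MSN, which encodes moesin, a linker of the membrane to actin, was higher in both pairs, at 269 on LNCaP and 1217 on PC3-H, against 2718 on PC3-L and 2521 on the array labelled LNCaP-AI. Like EMP3, MSN was lowest on LNCaP and intermediate on PC3-H. LOXL2, a collagen cross-linking enzyme, was 1.88-fold higher in the PC3 pair, against 4.44-fold in the LNCaP pair, and AXL 1.48-fold and 21.0-fold. FN1, the fibronectin gene, was bright on all 4 arrays (1433 to 2389) and within 2-fold in both pairs. TAGLN, a smooth muscle actin-binding gene, was 1.45-fold and 1.62-fold higher.

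SNAI2 is known as a target of TGF-beta signalling. Of 14 measured genes of that pathway, 5 were past 2-fold higher and 0 lower in the PC3 pair (median 0.55), and 5 were higher and 1 lower in the LNCaP pair (median 0.81). The genes past 2-fold were in part different ones. LTBP1 and LTBP2, which hold the ligand in the matrix, were higher in both, LTBP1 by 2.10-fold and 7.40-fold. LTBP2 was 2.59-fold and 2.02-fold higher by its brightest probe set. Its other, dimmer set stayed within 2-fold, at log2 differences of 0.49 and 0.34. SMAD2 (2.21-fold), SMAD4 (2.82-fold) and the inhibitor SMAD7 (2.47-fold) were past 2-fold in the PC3 pair and not in the LNCaP pair (0.67-fold, 1.06-fold and 1.78-fold). SMAD3, SMURF2 and LTBP3 were higher, and the pseudoreceptor BAMBI lower, in the LNCaP pair. The difference between the pairs was not tested. For PC3-L against LNCaP 5 were higher and 1 lower, and they were not all the same genes: SMAD3 (1.68-fold) and LTBP3 (1.44-fold) stayed within 2-fold, whereas SMAD7 (2.07-fold) and SKIL (2.49-fold) were past it beside SMURF2, LTBP1 and LTBP2, with BAMBI lower. Beside this list, 8.58% of all genes were higher in the PC3 pair, 5.45% in the LNCaP pair and 7.24% for PC3-L against LNCaP. Those lower were 5.13% in the LNCaP pair and 4.51% for PC3-L against LNCaP. TGF-beta ligands and receptors had no named probe set and are not analysed here.

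Among other regulators tied to SNAI2, 2 of 10 tested were higher in each pair and 0 lower. KITLG, the ligand of the receptor KIT, was higher in both, at 35.2 on LNCaP and 33.7 on PC3-H, against 99.0 on PC3-L and 73.3 on the array labelled LNCaP-AI. LEF1, a Wnt effector, was 2.72-fold higher in the PC3 pair, and SOX9 6.60-fold in the LNCaP pair. KITLG, SOX9 and JAG1 were higher for PC3-L against LNCaP, with 0 lower. Of all genes tested 8.58% were higher in the PC3 pair, 5.45% in the LNCaP pair and 7.24% for PC3-L against LNCaP. The Notch receptors NOTCH1 and NOTCH2 stayed within 2-fold in both.

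AP-1 genes are listed because of the match in the EMP1 promoter. Of 8 tested, JUN was past 2-fold higher in the PC3 pair (3.06-fold) and 0 lower. FOSL1 (33.4-fold) and FOSL2 (2.25-fold) were higher and ATF3 lower in the LNCaP pair. FOSL1, FOSL2 and JUN (2.03-fold) were higher and ATF3 lower for PC3-L against LNCaP. FOSL1 was 1314 on PC3-H and 1002 on PC3-L, and JUN was 132 and 407, where EMP1 was 69.8 and 714. Whether any of these factors acts on EMP1 was not tested. Of the genes listed as partners of EMP proteins, 4 were measured; 0 were past 2-fold in the PC3 pair and 1, the hyaluronan receptor CD44, was 12.0-fold higher in the LNCaP pair. For PC3-L against LNCaP 2, CD44 and PTK2, were higher and 0 lower. Beside both lists, 8.58% of all genes were higher in the PC3 pair, 5.45% in the LNCaP pair and 7.24% for PC3-L against LNCaP. Those lower were 5.13% in the LNCaP pair and 4.51% for PC3-L against LNCaP. EGFR, the epidermal growth factor receptor gene, was 651 on PC3-H against 336 on PC3-L, and was past 2-fold lower after quantile normalization or cyclic loess but not as deposited.

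Genes with the most similar profile over the 4 arrays were found by the root mean square distance between log2 profiles centred on each gene's mean, over 4 points, as a description. VIM lay nearest to NRP2 (0.31), a semaphorin and VEGF co-receptor, followed by EMP1 (0.35), AJAP1 (0.40), BMP2 (0.42) and DNER (0.43); the median distance of VIM from 12965 genes was 1.86. EMP1 lay nearest to CCN2 (0.20), NRP2 (0.23), DOCK10 (0.27), BMP2 (0.28) and VIM (0.35). SNAI2 lay nearest to DOCK4 (0.12), a Rac exchange factor that was 69.1 on LNCaP and 88.6 on PC3-H, against 663 on PC3-L and 484 on the array labelled LNCaP-AI. DNER, KLF7, KIAA1549L and HEG1 followed for SNAI2, up to a distance of 0.22.

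EMP3 had looser neighbours, from ANXA1 at 0.47 through ANPEP, ANXA2P2 and MYOF to PLEK2 at 0.64. ANXA1, an annexin of membrane repair, was 28.9 on LNCaP and 294 on PC3-H, against 1269 on PC3-L and 834 on the array labelled LNCaP-AI. ANXA2P2 is a pseudogene nearly identical to ANXA2, and its probe set may read both. Among the members, EMP1 was the gene ranked 2 from VIM, SNAI2 ranked 9 from VIM and EMP3 ranked 172. From SNAI2, EMP3 ranked 1689 of 12965. Without the array labelled LNCaP-AI, 0 of the 5 nearest genes of VIM and 3 of the 5 of EMP1 were kept; with the probe set 16702767 standing for VIM, 4 of its 5 were kept and CCN2 entered.

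**Figure D4:**
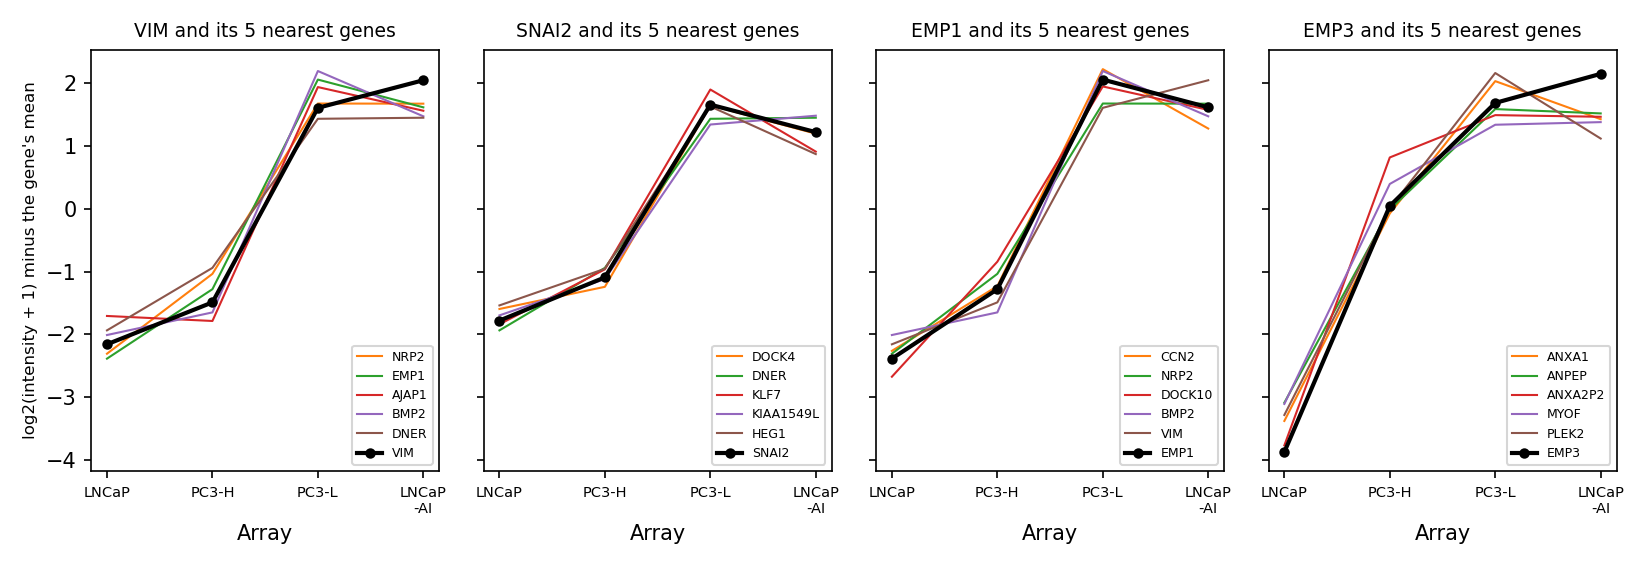
Profiles of log2(intensity + 1) minus each gene's mean over the 4 arrays (1 array each) for each member (black) and its 5 nearest genes (coloured); lines only join the points. VIM, SNAI2 and EMP1 step up between PC3-H and PC3-L, whereas EMP3 and its neighbours step up already between LNCaP and PC3-H.

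Vimentin and EMP genes are also abundant in stromal cells, so markers of other cell types were read on the same arrays. Of 8 fibroblast markers 2 had a named probe set; their summed intensity was 67.3 to 76.1 over the 4 arrays, with LUM at 20.0 to 24.5 and THY1 at 47.1 to 51.7, and 0 were past 2-fold in either pair. Endothelial markers summed to 240.02 to 274 over 6 of 8 genes, of which KDR was 27.0 to 38.4. Perineurial and Schwann markers, with 5 of 8 measured, summed to 239 to 390; SOX10 was 54.2 to 60.8, and ERBB3, which epithelial cells also express, was lower on PC3-L and on the array labelled LNCaP-AI. Of 8 leukocyte markers 4 were measured, and of these only CD68, a lysosomal gene, moved with the members. Together they summed to 236 on LNCaP and 434 on PC3-H, against 761 on PC3-L and 684 on the array labelled LNCaP-AI. CD68 made this rise, at 102, 290, 630 and 553 on the same arrays in that order. NKG7 was 74.6 to 88.0, CD14 26.9 to 32.1 and LYZ 25.2 to 28.5 over the 4 arrays. Of 5 erythroid markers 1 was measured, AHSP, at 25.0 to 30.8. The part of CD68-bearing cells in the members' values was not tested.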

How the data were processed

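The authors deposited 1 table of intensity values on a linear scale, 1 column for each of 4 arrays, from 17.6 to 11188. Extraction used ISOGEN II and labelling the GeneChip WT Terminal Labeling Kit, per the labels' protocols. Probe summarisation, background correction and normalization are not given in the sources used here. Of 37934 probe sets 14952 (39.4%) carried 1 gene symbol, and all matched RefSeq by Entrez identifier. The brightest probe set stood for its gene. Differences were taken on log2(intensity + 1), over genes with a higher value at or above the 40th percentile of that array, and counted past 2-fold. With 1 array per group no p-value was computed, and the number of arrays limits the precision. Functions were tested on simulated data. Members, gene lists and the rule for named genes (members, 5 nearest profiles, 2 neighbours on either side, listed genes past 2-fold, SNAI, ZEB and PMP22 relatives, markers) were chosen with earlier results of these data known. Python 3.11.15, pandas 2.3.3 and, for alternative normalizations, limma 3.58.1 were used.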

Additional observations from a re-analysis of the deposited data

How the results depend on the processing

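No paired analysis was possible because each group had 1 array. Each pair was recomputed without a pseudocount, with a pseudocount of 10, with median centring, quantile normalization, cyclic loess, the mean of probe sets, no filter and a filter at the 60th percentile, and for VIM, chosen after seeing the data, from probe set 16702767. Of 198 member differences, 197 kept their direction and their side of 2-fold, or stayed within 2-fold. EMP1 between LNCaP and PC3-H came to −0.93 with a pseudocount of 10. The filter settings cannot change a member's difference, and the mean of probe sets cannot change that of SNAI2, EMP1 or EMP3. Such values are counted among the 197 although they were fixed in advance. All 96 counts of genes past 2-fold stayed within 1.5 times their value, as did 312 of 320 list counts. Differences in the PC3 pair ranged from 2.98 to 3.44 for VIM over the planned settings and 3.65 with the added one, and from 1.53 to 1.71 for EMP3. The count of genes with the shared pattern was 406 at 1.5-fold and 27 at 4-fold, against 163. Without the array labelled LNCaP-AI it was 430, under the looser rule that only PC3-L lies above both high glycan arrays. Without that array 0 of 5 nearest genes of VIM and 3 of 5 of EMP1 were kept. Dim readings on LNCaP limit the folds of EMP1 and EMP3.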

Other observations

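Genes beside the members on their chromosomes were mostly within 2-fold. Of the 16 measured genes that flank the members, 2 on either side in RefSeq order, 9 passed the filter in the PC3 pair, with 1 past 2-fold higher and 0 lower, and 12 in the LNCaP pair, with 0 higher and 2 lower. For PC3-L against LNCaP 11 passed it, with 0 higher and 1, ST8SIA6-AS1, lower. The 1 higher in the PC3 pair was STAM, an adaptor of receptor sorting, at 243 on PC3-L against 110.03 on PC3-H and a log2 difference of 1.14; in the LNCaP pair it was −0.15. ST8SIA6-AS1, named as antisense to ST8SIA6 and the next measured gene after VIM, was 267 on LNCaP and 25.2 to 26.1 on the 3 other arrays. VIM was lowest on LNCaP, and a link between the 2 genes was not tested. FAM234B, near EMP1, was 156 on LNCaP and 64.0 to 77.7 elsewhere. ATF7IP, the neighbour of EMP1 on the other side, was just within 2-fold in the PC3 pair at 0.99 and was 0.011 in the LNCaP pair. The 4 neighbours of EMP3 (ZNF114, ODAD1, TMEM143 and SYNGR4) lay between −0.22 and 0.16 in both pairs. Over all genes tested, 8.58% were higher in the PC3 pair, 5.13% lower in the LNCaP pair and 4.51% lower for PC3-L against LNCaP.

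Of 96 listed genes that passed the filter in both pairs, 30 had log2 differences of opposite sign in the PC3 and LNCaP pairs, and 0 of them were past 2-fold in both. PLEC, the plectin gene, was among these 30, at −0.83 and 2.04; it was chosen after its values were seen, and the difference between the pairs was not tested.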
